A study of Homo sapiens with 4 samples.

Results

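The mitochondrial ribosomal protein genes were taken as the table rows whose gene symbol is MRPL or MRPS followed by a number and at most 1 letter, and 78 of the 17791 genes met this rule. They were measured by bulk RNA sequencing in 4 libraries from human engineered prostate cancer tissues, cancer cells grown in a poly(ethylene glycol)-fibrinogen hydrogel, at day 15 of culture. PC-3, which the submitters label castration-resistant (CRPC-ne, with the suffix not explained), was grown alone or with BJ-5ta fibroblasts, and LNCaP, which they label androgen-dependent (ADPC), was grown in the same 2 ways. BJ-5ta is an immortalised line of normal human skin fibroblasts, and the cocultures were seeded with 5 cancer cells to 1 fibroblast. No drug or other treatment is labelled, each cancer type is represented by 1 established cell line, and the growth protocol describes the medium of PC-3 tissues only. Each group had 1 library, from RNA of more than 2 tissues per the series text, so the spread between tissues could not be measured and no test between groups was made. The series asks what fibroblasts added at a set ratio do in tissues of either cancer type.

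Human mitochondria carry their own ribosome, which translates the few messenger RNAs encoded in mitochondrial DNA. All of those messages encode subunits of the respiratory chain and ATP synthase. The ribosomal RNAs of this machine come from mitochondrial DNA, whereas every one of its proteins is encoded in the nucleus, made in the cytosol and imported. Many of the proteins have a counterpart in the bacterial ribosome, and the others were added in the mitochondrial lineage. Nuclear factors such as NRF1, GABPA and YY1 are known regulators of genes for mitochondrial proteins.

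By textbook assignment, 51 of the 78 genes encode proteins of the large subunit and 26 encode proteins of the small subunit. MRPS30 and MRPS18A carry small-subunit names but their proteins sit in the large subunit. MRPS36 belongs to neither, since its protein is now known as part of the 2-oxoglutarate dehydrogenase complex. A bacterial counterpart is known for 45 of the genes and 31 are specific to mitochondria, with MRPL55 and MRPS36 not placed in either class.

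Values of the 4 libraries are given in 1 order throughout, called the library order: PC-3 alone, PC-3 with fibroblasts, LNCaP alone, LNCaP with fibroblasts. Total estimated counts in this order were 15865690, 15687894, 15860981 and 15520243. Line markers followed the labels in direction. KLK3, the gene of prostate-specific antigen, had 0 and 0 counts in the PC-3 libraries and 60226 and 74134 in the LNCaP libraries. All 6 listed LNCaP markers were higher in LNCaP than in PC-3, in monoculture and in coculture. TMPRSS2, 1 of them, was also well expressed in PC-3, with 7309 and 6384 counts beside 21261 and 27990 in LNCaP. KRT7, a keratin of PC-3 cells, had 10781 and 10475 counts in the PC-3 libraries and 0 and 2 in the LNCaP libraries. CD44, CAV1 and AXL, listed as PC-3 markers but known in fibroblasts too, had 1, 0 and 2 counts in LNCaP alone and 776, 297 and 129 in LNCaP with fibroblasts. Of 20 fibroblast markers, 5, 19, 3 and 19 reached 1 CPM (count per 1000000 scaled counts) in library order, with summed levels of 154, 746, 7.47 and 1054 CPM. The numbers of markers at 0 counts were 8, 0, 9 and 1, the last being POSTN, the gene of the matrix protein periostin. No library of fibroblasts alone was analysed here. In these bulk samples fewer cells of a type and less RNA per cell cannot be told apart.

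All 78 genes were expressed in all 4 libraries. The lowest value was 5.81 CPM, that of MRPL1 in PC-3 with fibroblasts. Their summed counts were 64682, 55477, 72363 and 62620 in library order. This was 0.408%, 0.354%, 0.456% and 0.403% of all counts, so the share was lower in either coculture than in its monoculture and higher in LNCaP than in PC-3. The exact 95% binomial intervals were 0.405% to 0.411%, 0.351% to 0.357%, 0.453% to 0.460% and 0.400% to 0.407%. These intervals, like all others here, cover counting error only. Small-subunit genes gave 41.3% and 40.9% of the summed large- and small-subunit counts in PC-3 without and with fibroblasts. In LNCaP these shares were 34.8% and 35.6%. The difference between the lines turned with MRPS6 and MRPS16, 2 genes left out after their values were seen. Without them the small-subunit counts summed to 18288, 15897, 22402 and 19624 in library order. The large-subunit counts summed to 37874, 32730, 47059 and 40246. In monoculture the small-subunit sum without these 2 genes was 1.24 times PC-3 (1.21 to 1.26) in LNCaP. The large-subunit sum was 1.26 times (1.24 to 1.27).

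Levels of different genes were compared as CPM per kilobase of transcript. The median over large-subunit genes was 37.1, 32, 39.9 and 30.8 CPM per kilobase in library order. The median over small-subunit genes was 32.2, 29.6, 38.0 and 31.4. The subunits were therefore close in median level.

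**Figure D1:**
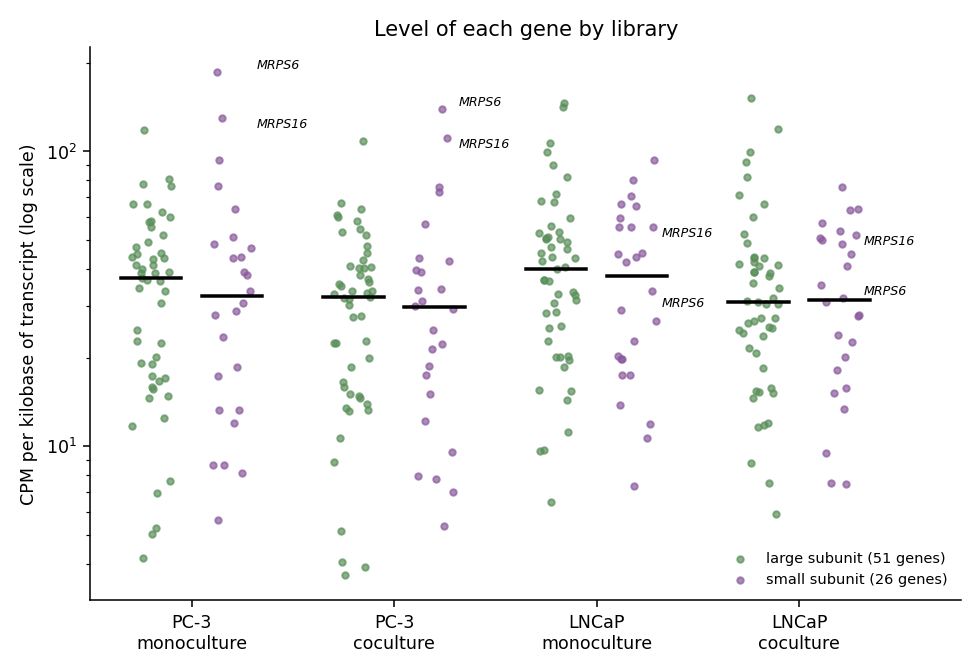
Level of each mitochondrial ribosomal protein gene in CPM per kilobase of transcript (vertical log axis) in the 4 libraries, with 51 large-subunit genes in green, 26 small-subunit genes in purple and black bars at the medians. MRPS6 and MRPS16 top the small-subunit genes in both PC-3 libraries and both lie lower in the LNCaP libraries.

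The highest mean level over the 4 libraries was that of MRPL20, a large-subunit protein with a bacterial counterpart, with 118.5, 108.9, 145.5 and 151.5 CPM per kilobase in library order. MRPL12, counterpart of the flexible stalk protein of bacteria and a binding partner of the mitochondrial RNA polymerase, had 80.7, 66.7, 106.5 and 92.1. MRPL24, counterpart of an early-binding protein of bacterial assembly, had 41.1, 40.3, 141.4 and 119.0. MRPL20 and MRPL12 were thus high in all libraries and MRPL24 was high in LNCaP.

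MRPS6 and MRPS16, both small-subunit proteins with bacterial counterparts, showed the reverse order of lines. MRPS6 had 185.3, 138.9, 29.04 and 31.9 CPM per kilobase in library order, and MRPS16 had 130.0, 111.5, 55.4 and 51.9. At the other end were MRPL22, a protein of the exit tunnel (mean of 5.05 CPM per kilobase), MRPS36 (6.22), MRPS31 (6.45), MRPL42 (7.32) and MRPL50 (7.34). The transcript chosen for MRPL42 has 15582 bases, far more than that of any other member, and its level per length depends on this choice.

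MRPS18A, MRPS18B and MRPS18C are 3 related genes whose proteins resemble bacterial S18 and take different places in the ribosome. MRPS18C takes the bacterial place and is counted here as the counterpart, and the other two are counted as specific to mitochondria. MRPS18A had 737, 634, 735 and 640 counts in library order. MRPS18B had 1153, 1017, 1086 and 973 counts, and MRPS18C had 315, 247, 308 and 242. Per length the levels of MRPS18A and MRPS18B were similar, with means of 41.1 and 43.8 CPM per kilobase, and that of MRPS18C was lower at 10.7. The cancer lines hardly differed for any of the 3 genes: in monoculture the log2 folds of LNCaP over PC-3 were 0.01, -0.07 and -0.02, with counting intervals that include equality.

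The start-site regions of the genes were then read for motifs of factors known to act on nuclear genes for mitochondrial proteins. RefSeq (GRCh38.p14) gave a 300-base window, 250 bases before to 50 after the start, for 69 of the 78 genes and for 13326 genes of the table. The ETS motif CCGGAAG, which GABPA and other ETS factors bind, was present on either strand in 29 of the 69 windows (42.0%), against 16.7% of all windows and 33.8% of those of cytosolic ribosomal protein genes. In 24 of the 29 a copy lay within 60 bases of the start. The YY1 motif AAGATGGCG was present in 13 windows (18.8%, against 3.29% of all). It shares its first letters with the end of the ETS motif, and 4 windows held both. The palindromic NRF1 motif was in 8 windows (11.6%, against 10.1%), and the E-box CACGTG in 6 (8.70%, against 9.61%). CTCTTTCC, a pyrimidine run as at the start of cytosolic ribosomal protein genes, was in 1 window (1.45%) against 3.08% of all and 13.2% of the cytosolic ones. A match describes letters in this window and is not evidence of binding.

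The following stretches are the 100 bases before the start of genes that the expression results turn on, printed 5′ to 3′ on the strand of the gene, with ETS, YY1 and NRF1 motifs in capitals. MRPL20 has the highest level per length (minus strand, chr1:1407294-1407393). MRPL27 was among the genes lower in LNCaP than in PC-3 (minus strand, chr17:50373185-50373284). MRPL3 was higher in the LNCaP coculture than in the monoculture (minus strand, chr3:131502972-131503071). MRPL54 was lower in that coculture and has its ETS motif on the opposite strand (plus strand, chr19:3762582-3762681). MRPL52 was also lower there and holds the YY1 motif at 2 places, with a further ETS motif that runs over the start and is not shown whole (plus strand, chr14:22829787-22829886). MRPS9 had higher levels in both cocultures and carries the NRF1 motif on the opposite strand (plus strand, chr2:105037969-105038068). MRPL34, the gene furthest below its monoculture, and MRPS6, the gene that differed most between the lines, hold none of the 3 motifs here (plus strands, chr19:17292473-17292572 and chr21:34073478-34073577).
MRPL20: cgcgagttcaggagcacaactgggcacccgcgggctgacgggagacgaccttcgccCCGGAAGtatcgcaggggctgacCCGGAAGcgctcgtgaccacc
MRPL27: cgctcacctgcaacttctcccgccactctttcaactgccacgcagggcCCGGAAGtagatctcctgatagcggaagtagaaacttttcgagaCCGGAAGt
MRPL3: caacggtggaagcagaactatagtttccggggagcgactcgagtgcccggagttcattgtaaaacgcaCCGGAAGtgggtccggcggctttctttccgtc
MRPL54: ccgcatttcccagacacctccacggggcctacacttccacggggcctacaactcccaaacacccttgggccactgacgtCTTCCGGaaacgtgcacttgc
MRPL52: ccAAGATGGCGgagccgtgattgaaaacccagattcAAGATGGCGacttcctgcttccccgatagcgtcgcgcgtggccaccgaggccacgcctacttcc
MRPS9: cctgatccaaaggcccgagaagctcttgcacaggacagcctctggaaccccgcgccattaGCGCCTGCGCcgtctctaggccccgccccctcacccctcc
MRPL34: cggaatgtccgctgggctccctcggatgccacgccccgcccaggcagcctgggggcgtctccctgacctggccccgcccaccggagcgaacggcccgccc
MRPS6: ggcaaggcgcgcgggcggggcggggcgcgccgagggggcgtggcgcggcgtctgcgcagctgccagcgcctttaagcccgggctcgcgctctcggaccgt

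Fold values below compare single libraries. They are log2 ratios of scaled counts with a prior count of 2, or plain ratios with an exact 95% counting interval where no log is named. Genes were counted by the log2 value past a ratio of 5 to 4, that is at least 25% higher or at least 20% lower, and past 2-fold.

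The first question is how PC-3 tissues with fibroblasts differ from PC-3 tissues alone. Mitochondrial ribosomal protein genes were slightly lower in the coculture: 69 of 78 had a log2 fold below 0 (49.2% of the 14417 genes with at least 1 CPM in 1 of these libraries) and 9 had one above 0 (50.8%). At least 20% lower were 18 genes (23.1% of the members, 12.3% of all genes), at least 25% higher were 0 (11.8% of all genes), and 0 passed 2-fold in either direction (1.01% lower and 2.22% higher). The median log2 fold was -0.16 with quartiles of -0.32 and -0.08, against 0.00 over all genes. Summed over the 78 genes the ratio was 0.874 (0.864 to 0.884). Counting intervals lay wholly below 1 for 42 genes (20.4% of all genes) and wholly above 1 for 1 gene (21.5%).

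Transcript length moved with this result. When the folds were corrected for transcript length with a trend over all genes, the number of members at least 20% lower was 3 instead of 18 (9.21% of all genes under the same correction), 1 was at least 25% higher (12.9%) and 51 instead of 69 lay below 0 (45.4%). The median log2 fold was then -0.05, against 0.03 over all genes. The share of members at least 20% lower was thus above that of all genes before the correction and below it after, while the share below 0 was above it in both. The fibroblast markers, whose summed level was 154 CPM without and 746 CPM with fibroblasts, also moved with it. The part of fibroblast RNA in the result was not tested.

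MRPL58 (chr17:75012670-75021261 in the RefSeq annotation of GRCh38.p14, as for the genes that follow), a peptidyl-tRNA hydrolase that frees stalled mitochondrial ribosomes, had 644 counts in PC-3 alone and 441 with fibroblasts. It was 1.43-fold lower (1.27 to 1.62), the lowest ratio of the 78 in this line. MRPL18, which contacts the structural RNA of the central protuberance, had 684 and 487 counts (1.38-fold lower, 1.23 to 1.55). MRPL33, a small protein with a bacterial counterpart, had 458 and 331 counts (1.36-fold lower, 1.18 to 1.57).

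MRPL50, a mitochondria-specific protein, and MRPL14, which lies at the subunit interface where the assembly factor MALSU1 binds, completed the 5 lowest genes, with log2 folds of -0.43 and -0.42. The 5 lowest genes all encode large-subunit proteins, as do 51 of the 78. MRPL33 shares exon bases on the same strand with BABAM2, so part of its reads cannot be assigned with certainty.

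At the upper end, MRPL35 (chr2:86199433-86213794), a large-subunit protein with a bacterial counterpart, had 454 counts in PC-3 alone and 516 with fibroblasts, a ratio of 1.16 (1.02 to 1.32). It was the 1 gene with an interval wholly above 1. MRPS9, a protein of the small-subunit head, had 317 and 353 counts (1.13, 0.972 to 1.32). MRPS30, MRPL44, which has an RNase III-like fold, and MRPL15 had log2 folds of 0.15, 0.15 and 0.09, with intervals that include equality.

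The same comparison was made for LNCaP. Again most genes were lower in the coculture: 62 of 78 had a log2 fold below 0 (49.9% of 14119 genes) and 16 above (50.1%). At least 20% lower were 21 genes (19.3% of all genes), at least 25% higher 0 (16.8%), at least 2-fold lower 1 (3.03%) and at least 2-fold higher 0 (4.56%). The median log2 fold was -0.20 with quartiles of -0.34 and -0.02, against 0.00 over all genes. The summed ratio was 0.881 (0.872 to 0.890), and intervals lay wholly below 1 for 47 genes (25.8% of all genes) and wholly above 1 for 5 (27.8%).

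As a share the 21 genes were 26.9% of the members, not far from the 19.3% of all genes. After the length correction 9 genes were at least 20% lower (16.7% of all genes), 4 were at least 25% higher (18.4%), 45 lay below 0 (46.9%) and the median log2 fold was -0.04, against 0.02 over all genes. The share at least 20% lower was then under that of all genes. The summed level of fibroblast markers was 7.47 CPM without and 1054 CPM with fibroblasts, and its part in the result was not tested.

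MRPL34 (chr19:17292573-17306843), a short basic protein of the large subunit with a bacterial counterpart, had 852 counts in LNCaP alone and 371 with fibroblasts. It was 2.26-fold lower (1.99 to 2.56), the furthest of the 78 genes. In PC-3 it had 1184 and 878 counts, 1.32-fold lower (1.21 to 1.45). Its exons overlap those of ABHD8 on the opposite strand, which had 721 and 618 counts in LNCaP without and with fibroblasts, and the library kit does not mark strand.

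The next lowest genes in LNCaP were also large-subunit genes, as are 51 of the 78. MRPL52, a mitochondria-specific protein, had 501 counts alone and 265 with fibroblasts (1.86-fold lower, 1.60 to 2.16). MRPL54, also specific to mitochondria, had 508 and 299 (1.67-fold lower, 1.44 to 1.93). MRPL33 had 551 and 328 (1.65-fold lower, 1.44 to 1.90). MRPL11, counterpart of the bacterial protein at the base of the stalk where translation factors dock, had 497 and 298 (1.64-fold lower, 1.42 to 1.90). In PC-3 the same 4 genes had log2 folds of -0.24, -0.18, -0.44 and -0.13.

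MRPL35 was again at the upper end, with 566 counts alone and 673 with fibroblasts (1.21, 1.08 to 1.36). MRPS9 had 469 and 555 counts (1.20, 1.06 to 1.37). MRPS35, a mitochondria-specific small-subunit protein, had 1354 and 1574 counts (1.18, 1.10 to 1.27), and MRPL3, a core protein of the large subunit, had 1601 and 1760 (1.12, 1.05 to 1.20). MRPS6 had a log2 fold of 0.14 with an interval that includes equality. In either line, then, no gene of the 78 was as much as 25% higher with fibroblasts unless length was corrected for.

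**Figure D2:**
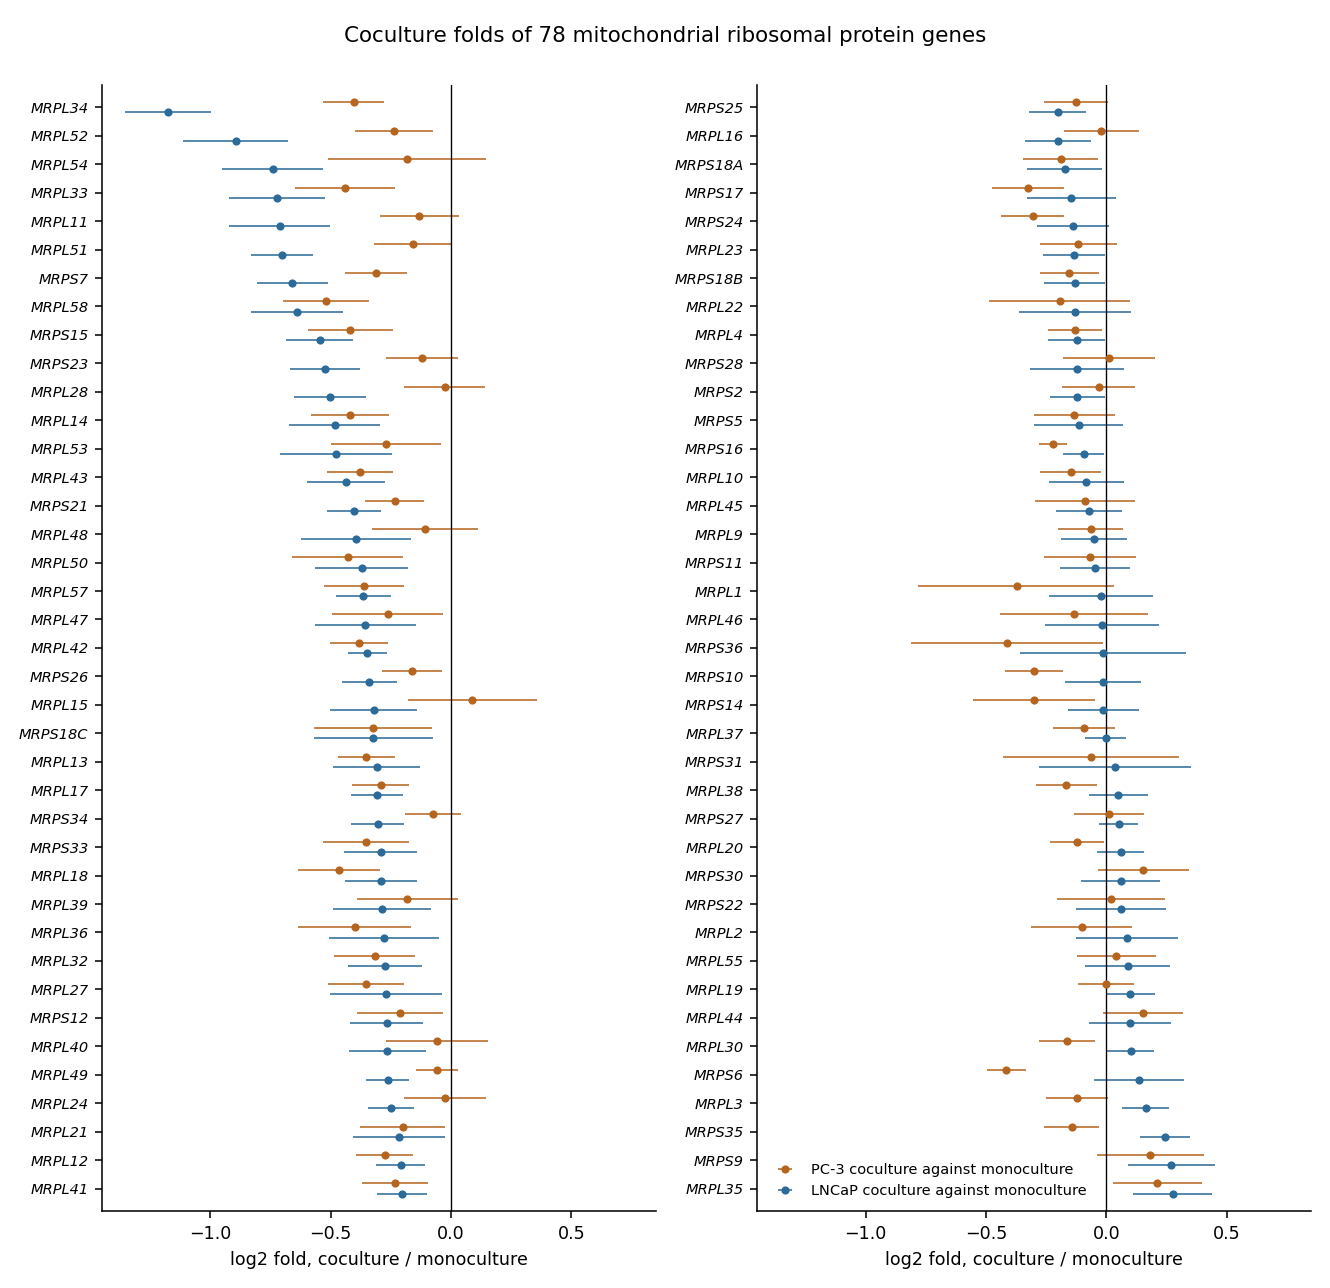
Log2 fold of coculture over monoculture (horizontal axis) for each of the 78 genes, ordered by the LNCaP value, with points for PC-3 in orange and LNCaP in blue and bars for 95% counting intervals. Most points lie left of 0 in both lines, the LNCaP points of MRPL34 and MRPL52 lie furthest left, and MRPL35 and MRPS9 lie right of 0 in both.

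Side by side, the 2 coculture comparisons share no library. Below 0 in both were 60 of 78 genes (27.7% of all genes measured in both), above 0 in both were 7 (29.3%), below 0 in PC-3 only 9 (21.5%) and below 0 in LNCaP only 2 (21.6%). Counting intervals lay below 1 in PC-3 and above 1 in LNCaP for 2 genes (4.44% of all genes) and the other way for 0 (4.47%). At least 20% lower in both were 9 genes (4.44% of all): MRPL14, MRPL33, MRPL34, MRPL42, MRPL43, MRPL50, MRPL57, MRPL58 and MRPS15, named after their values were seen. Of these, 8 are large-subunit genes and 1 is a small-subunit gene, where the 78 hold 51 and 26. Across the 78 genes the log2 folds of PC-3 and LNCaP had a Pearson r of 0.48 and a Spearman rho of 0.49, a description over genes that share their library and range of transcript length.

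In PC-3, 13 of 51 large-subunit genes (25.5%) and 4 of 26 small-subunit genes (15.4%) were at least 20% lower with fibroblasts. The share of all genes was 12.3%. In LNCaP these were 16 of 51 (31.4%) and 5 of 26 (19.2%), against 19.3% of all genes. The small-subunit shares were thus near those of all genes at the 1 CPM bound. The median log2 folds of large- and small-subunit genes were -0.17 and -0.16 in PC-3 and -0.26 and -0.13 in LNCaP. By origin, the genes with a bacterial counterpart had medians of -0.21 in PC-3 and -0.15 in LNCaP, and the mitochondria-specific genes -0.15 and -0.26. The order of the classes was thus not the same in both lines.

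The gene-by-gene difference of log2 folds, LNCaP minus PC-3, had a median of 0.02 over the members and 0.02 over all genes with 10 counts in every library. It was below 0 for 35 of 78 genes (48.3% of all genes). Past a ratio of 5 to 4, 9 genes lay towards lower in LNCaP (19% of all genes) and 4 towards higher in LNCaP (17.2%). The lowest were MRPL34 (-0.77, -0.98 to -0.55), MRPL52 (-0.65, -0.92 to -0.38), MRPL11 (-0.58, -0.84 to -0.31), MRPL54 (-0.56, -0.93 to -0.18) and MRPL51 (-0.54, -0.75 to -0.34). All of these encode large-subunit proteins, as do 51 of the 78 genes. The highest was MRPS6 (0.55, 0.35 to 0.75). Its counts were 2928, 2155, 454 and 490 in library order.

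Genes with a known role outside or beside translation were read separately. MRPL12 had 1325, 1074, 1729 and 1469 counts in library order, and was 1.21-fold (1.12 to 1.31) and 1.16-fold (1.08 to 1.24) lower with fibroblasts in PC-3 and LNCaP. MRPL41, which also binds the apoptosis regulator BCL2, had 955, 798, 1634 and 1394 counts and was 1.17-fold (1.07 to 1.29) and 1.15-fold (1.07 to 1.24) lower. MRPS12, of the decoding centre, had 560, 475, 815 and 665 counts and was 1.16-fold (1.02 to 1.31) and 1.20-fold (1.09 to 1.34) lower.

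MRPS30, first described as a protein of programmed cell death, had 446, 487, 601 and 615 counts in the same order, and MRPL44 had 562, 613, 554 and 583. Both were slightly higher in either coculture, by 1.11-fold (0.976 to 1.27) and 1.04-fold (0.929 to 1.17) for MRPS30 and by 1.11-fold (0.989 to 1.248) and 1.07-fold (0.952 to 1.21) for MRPL44. All 4 of these intervals include equality. MRPL58 was at or near the bottom of the list in both lines, with 644, 441, 596 and 376 counts.

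The folds were next set against transcript length. Of the 78 genes, 17 have a transcript of up to 1000 bases, 46 one of over 1000 and up to 2000 bases and 15 a longer one. The shortest class had median log2 folds of -0.35 in PC-3 and -0.27 in LNCaP. Other genes of that length had -0.25 and -0.34, so the members were not lower than other short genes in LNCaP. In the next class the members had -0.15 and -0.20, against -0.08 and -0.07 for other genes. Above 2000 bases they had -0.16 and -0.09, against 0.04 and 0.04. Across the 78 genes the log2 fold and log2 length had a Pearson r of 0.17 and a Spearman rho of 0.24 in PC-3, and 0.23 and 0.32 in LNCaP.

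**Figure D3:**
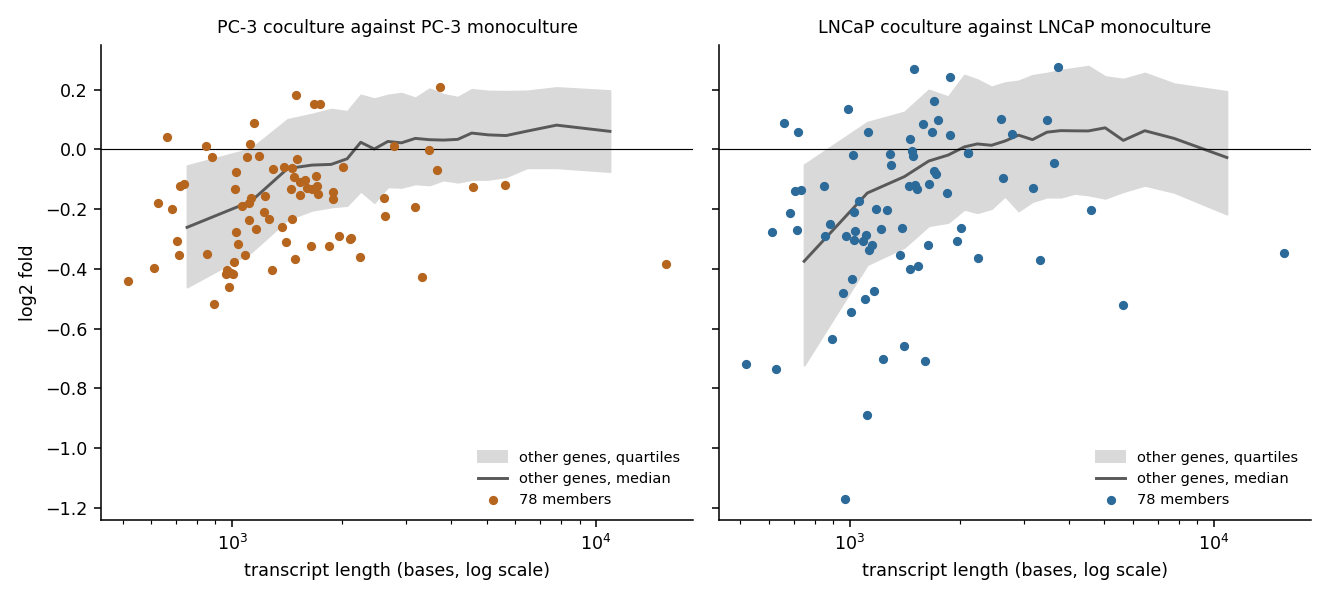
Log2 fold of coculture over monoculture (vertical axis) against transcript length in bases (horizontal log axis) for the 78 genes (points), with the running median and quartiles of all other genes in grey, for PC-3 (left) and LNCaP (right). The grey median lies below 0 at short lengths, and most members lie below 0.

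The proteins of this ribosome that do not carry an MRPL or MRPS symbol gave a further view. CHCHD1, a small-subunit protein with a twin cysteine fold, had 2016, 1484, 666 and 437 counts in library order, with ratios of 0.750 (0.701 to 0.802) and 0.668 (0.591 to 0.755) in the cocultures. AURKAIP1, also of the small subunit, had 2940, 2655, 1973 and 1580 counts (0.920, 0.873 to 0.970, and 0.815, 0.763 to 0.871). GADD45GIP1, a large-subunit protein, had 2403, 2023, 1493 and 1289 counts (0.858, 0.808 to 0.910, and 0.879, 0.815 to 0.948). All 3 genes were lower with fibroblasts in both lines.

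DAP3, a GTP-binding protein of the small subunit, had 1670, 1602, 1989 and 2128 counts in the same order, and PTCD3, a pentatricopeptide repeat protein of the small subunit, had 868, 856, 1415 and 1225. DAP3 was higher in the LNCaP coculture (1.09, 1.02 to 1.16) and PTCD3 was lower there (0.881, 0.816 to 0.952), while both were near equality in PC-3. Over the 5 genes the median log2 folds were -0.12 and -0.19, with 4 of 5 below 0 in either coculture.

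Genes that assemble and serve the ribosome had medians nearer to 0 when transcript length was left aside. After the length correction the members' own medians were -0.05 and -0.04, and these lists were not corrected. For these and the following lists, 12.3% of all genes were at least 20% lower and 11.8% at least 25% higher in PC-3. In LNCaP these shares were 19.3% and 16.8%. Among 25 assembly factors, 1 (4%) was at least 20% lower and 0 at least 25% higher with fibroblasts in PC-3. In LNCaP 4 (16%) were lower and 1 was higher. The medians were -0.01 and 0.01. MALSU1, which keeps the new large subunit from joining too early, had 747 and 559 counts in PC-3 and 366 and 280 in LNCaP. ERAL1, a GTPase that chaperones the small ribosomal RNA, had 638 and 505 in PC-3 and 972 and 1002 in LNCaP. METTL17, a small-subunit assembly factor, had 532 and 626 in PC-3 and 345 and 410 in LNCaP, and MRM2, a methyltransferase of the large ribosomal RNA, had 698 and 777 and then 508 and 601. MALSU1 was thus lower and METTL17 and MRM2 were higher in both cocultures.

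In LNCaP the lowest assembly factor was MTERF4, which brings the methyltransferase NSUN4 to the ribosome, with 1193 counts alone and 623 with fibroblasts (0.532, 0.482 to 0.586). MRM1, another methyltransferase of the large ribosomal RNA, had 159 and 117. MPV17L2, an inner membrane protein of ribosome assembly, and TRMT2B, an RNA methyltransferase, had ratios of 1.29 (1.06 to 1.57) and 1.23 (1.07 to 1.40). In PC-3, MTERF4 had 130 and 119 counts.

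Among 16 translation factors, 2 were lower and 1 higher past these bounds in PC-3, and 1 was lower and 3 were higher in LNCaP, with medians of 0.03 and 0.13. SLIRP, which stabilises mitochondrial messenger RNAs together with LRPPRC, was the lowest in both, with 248 and 169 counts in PC-3 and 545 and 299 in LNCaP. TUFM, the mitochondrial elongation factor Tu, had 2707 and 2767 counts in PC-3 and 3487 and 4330 in LNCaP (1.26, 1.21 to 1.32, in LNCaP). GFM1, an elongation factor G, had 515 and 540 in PC-3 and 1041 and 1346 in LNCaP, and MTIF2, the initiation factor, had 459 and 555 and then 355 and 415. TSFM, the exchange factor of TUFM, had log2 folds of 0.15 in PC-3 and 0.14 in LNCaP, MTFMT, which formylates the initiator transfer RNA, -0.39 and 0.25, and MRRF, the recycling factor, 0.04 and -0.16. SLIRP thus stood below the other named factors of this list in both lines.

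For 20 mitochondrial aminoacyl-tRNA synthetases and related enzymes, which load transfer RNAs, the medians were 0.06 and -0.03, with 0 lower and 1 higher past the same bounds in PC-3 and 2 lower and 1 higher in LNCaP. IARS2, the isoleucyl enzyme, had 4951 and 6167 counts in LNCaP. Among genes of this list that reach 10 CPM, the extremes in PC-3 included TARS2 (log2 fold of 0.23), WARS2 (-0.14) and RARS2 (-0.26). In LNCaP the extremes included NARS2 (0.27), QRSL1 (-0.37) and AARS2 (-0.39). For 8 genes of mitochondrial transcription and DNA copying the medians were -0.03 and -0.13, with 1 and 2 genes lower and 0 and 0 higher past these bounds. TEFM, the elongation factor of mitochondrial transcription, had 139 and 97 counts in PC-3 and 167 and 118 in LNCaP, under 10 CPM in PC-3. POLRMT, the polymerase, had log2 folds of 0.27 and -0.07, TWNK, the DNA helicase, 0.28 and 0.01, and TFAM, the packaging and initiation factor, -0.07 and -0.07. For 9 of 10 nuclear regulators that reached 1 CPM, among them NRF1, GABPA, YY1 and MYC, the medians were 0.06 and -0.06, and 0 of 9 passed these bounds in either comparison. Among those that reach 10 CPM, the extremes were GABPB1, the partner of GABPA, and PPRC1 at 0.29 and 0.24 in PC-3 and GABPA at 0.22 in LNCaP, with GABPB1 and MYC lowest there at -0.22 and -0.22. PPARGC1A, the coactivator of mitochondrial biogenesis, was under 1 CPM in every library.

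Ribosomal proteins of the cytosol and subunits of the respiratory chain were read beside the members. Of 82 measured cytosolic ribosomal protein genes, 66 were at least 20% lower with fibroblasts in PC-3 and 73 in LNCaP, with median log2 folds of -0.45 and -0.73 and summed ratios of 0.759 (0.756 to 0.763) and 0.633 (0.631 to 0.635). Of 77 measured nuclear genes of the respiratory chain and ATP synthase, 33 and 51 were at least 20% lower, with medians of -0.31 and -0.42 and summed ratios of 0.848 (0.841 to 0.855) and 0.809 (0.803 to 0.815). Mitochondrial ribosomal protein genes, at -0.16 and -0.20, were nearer to equality than either set when transcript length was left aside. Members of up to 1000 bases had medians of -0.35 and -0.27, the first of them below the respiratory chain median in PC-3. The sets were not matched for length, and the part of length in their order was not tested. These are counts and medians over genes, and no test of the difference between the sets was made.

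**Figure D4:**
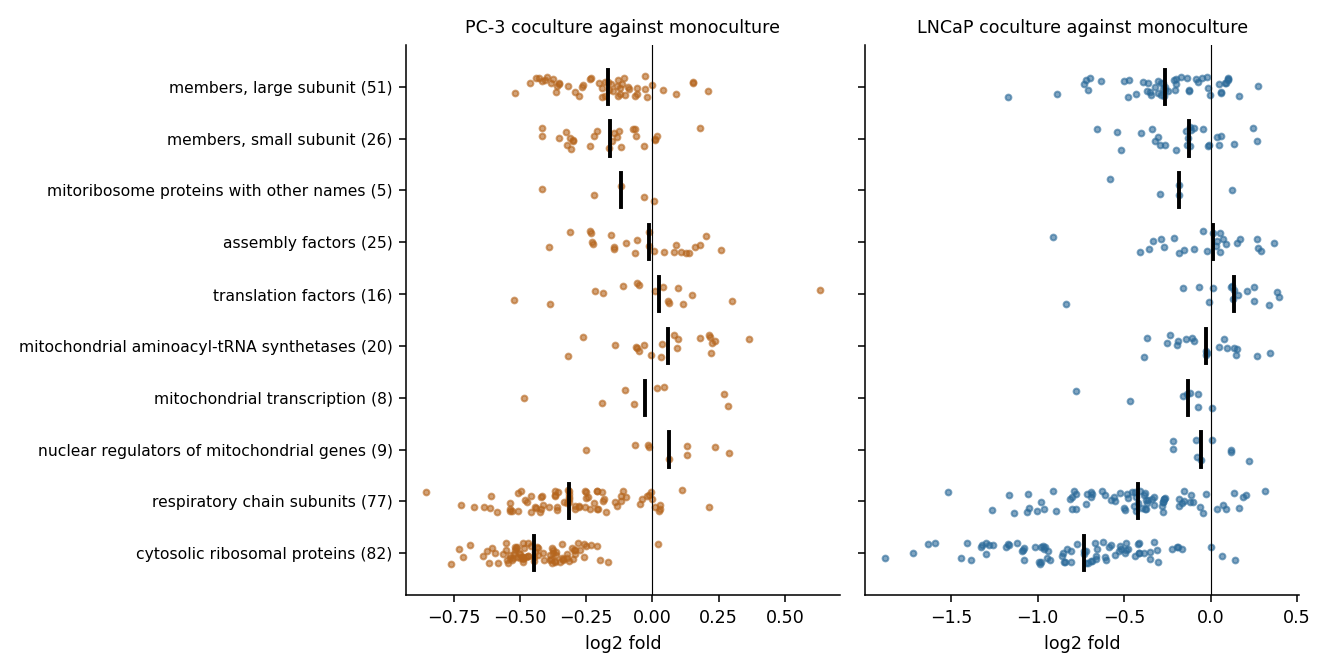
Log2 fold of coculture over monoculture (horizontal axes) for each gene of 10 groups, in PC-3 (left) and LNCaP (right), with black bars at the group medians and the number of genes drawn in the PC-3 panel in parentheses. Without length correction, the members lie between the cytosolic ribosomal proteins, furthest left, and the assembly and translation factors, near 0.

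The last question is how the lines differ. In monoculture, 52 of 78 genes were higher (51.3% of 15160 genes) and 26 lower (48.7%) in LNCaP than in PC-3. At least 25% higher in LNCaP were 37 genes (40.9%) and at least 20% lower 13 (38.7%), and past 2-fold 11 were higher (22.1%) and 4 lower (23.6%). The median log2 fold was 0.30, against 0.04 over all genes, and the summed ratio was 1.13 (1.12 to 1.14). In coculture 50 were higher (50.2% of 15155 genes) and 28 lower (49.8%). At least 25% higher were 35 (39.5%) and at least 20% lower 13 (39.7%), and past 2-fold 9 were higher (20.7%) and 6 lower (23.6%). The median was 0.26, against 0.01, and the summed ratio 1.14 (1.13 to 1.15). After the length correction the medians were 0.09 and 0.09, and 19 and 21 genes were at least 20% lower in LNCaP (39.5% and 40.8% of all genes). Members past 2-fold were thus fewer, as a share, than all genes in both directions.

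The sum of the large-subunit genes was 1.26 times PC-3 (1.24 to 1.27) in LNCaP monoculture, and that of the small-subunit genes was 0.953 times (0.937 to 0.970). The median log2 folds of the subunits, 0.30 and 0.32, were close. Mitochondria-specific genes summed to 1.41 times PC-3 (1.39 to 1.43) and those with a bacterial counterpart to 0.978 (0.965 to 0.992). The class with a bacterial counterpart had a median log2 fold of 0.28, with 26 of 45 genes above 0. In coculture the small-subunit sum was 0.992 (0.973 to 1.01) and that of genes with a bacterial counterpart 1.01 (0.997 to 1.03). These 2 intervals include equality. The large-subunit and mitochondria-specific sums in coculture were 1.24 (1.22 to 1.26) and 1.37 (1.34 to 1.39). Both monoculture sums below 1 turned with MRPS6 and MRPS16, 2 genes left out after their values were seen. Without them the small-subunit sum in monoculture was 1.24 (1.21 to 1.26) and that of genes with a bacterial counterpart 1.14 (1.13 to 1.16).

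MRPS6 (chr21:34073578-34143030) differed most between the lines. It had 2928 counts in PC-3 alone and 454 in LNCaP alone, 6.38-fold lower in LNCaP (5.78 to 7.06), and 2155 and 490 in the cocultures, 4.35-fold lower (3.94 to 4.81). Up to 176 bases of its exons are shared on the same strand with SLC5A3, a myo-inositol transporter gene, whose counts were 5750, 5872, 1083 and 1227 in library order. How the estimate split reads between these genes was not tested.

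MRPS16 (chr10:73248849-73252644) had 5466 counts in PC-3 alone and 2304 in LNCaP alone, 2.35-fold lower in LNCaP (2.23 to 2.46), and 4602 and 2120 in the cocultures. It overlaps DNAJC9 by 20 bases on the same strand, with 2442, 2390, 688 and 589 counts in library order. MRPL13 had 1345 and 565 counts in the PC-3 and LNCaP monocultures, MRPL27, a protein near the peptidyl transferase centre, had 760 and 345, and MRPS10 had 1288 and 675. Of these, MRPS10 was the 1 gene that stayed under 2-fold.

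Genes higher in LNCaP were led by MRPL24 (chr1:156737303-156742716), with 579 counts in PC-3 alone and 1972 in LNCaP alone, a ratio of 3.44 (3.14 to 3.78), and 558 and 1630 in the cocultures. MRPS27, a pentatricopeptide repeat protein of the small subunit, had 772 and 2430 counts in the monocultures (3.18, 2.93 to 3.45) and 763 and 2472 in the cocultures (3.27, 3.02 to 3.55). MRPL1, of the stalk by which spent transfer RNA leaves, had 120 and 363 in the monocultures and 91 and 351 in the cocultures (3.90, 3.09 to 4.96, in coculture).

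MRPL54 had 171 and 508 counts in the PC-3 and LNCaP monocultures, and MRPS14, of the small-subunit head, had 291 and 761. MRPL37, a mitochondria-specific large-subunit protein, was among the 5 highest in coculture with 942 and 2282 counts. MRPL34 and MRPL52 joined the 5 lowest in coculture, with log2 folds of LNCaP over PC-3 of -1.22 and -1.08, where the monocultures gave -0.46 and -0.43.

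The setting changed the order of the genes little. The same sign in monoculture and coculture was found for 72 of 78 genes, a share close to the 90.1% of all genes. At least 2-fold higher in LNCaP in both were 9 genes (17.5% of all genes) and at least 2-fold lower in both 4 (20.6%). Across the 78 genes the log2 folds of the lines in the 2 settings, which share no library, had a Pearson r of 0.94 and a Spearman rho of 0.95. The same correlation over all genes was not computed.

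**Figure D5:**
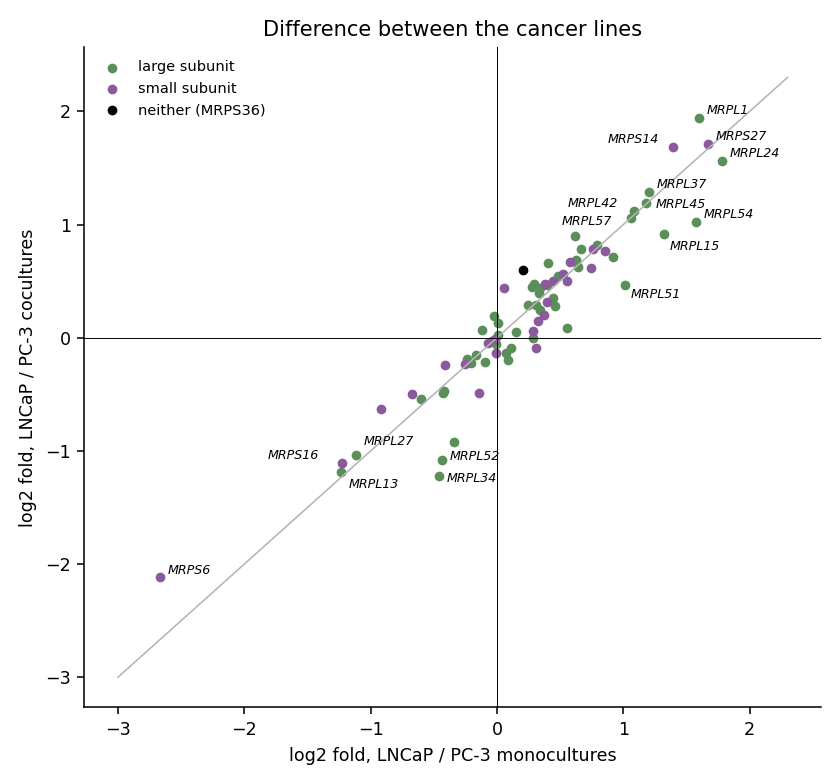
Log2 fold of LNCaP over PC-3 in the cocultures (vertical axis) against the same in the monocultures (horizontal axis) for the 78 genes, with large-subunit genes in green, small-subunit genes in purple, MRPS36 in black and the line of equality in grey. Most points follow the line, MRPS6 lies at the lower end, and MRPL34 and MRPL52 lie below the line.

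Several limits touch single members. The exons of 41 of the 78 genes overlap those of another gene, in 29 cases of a gene of the table, and the kit does not mark strand. For 34 of the genes at least 1 pseudogene carries the gene's name, 75 pseudogenes in all, and reads from such near-copies may be split between them.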

How the data were processed

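The table held estimated counts per gene and library, as deposited by the authors. FastQC, STAR, Partek and the genome build hg38 are named per the submitters' processing notes, with no roles or versions, and the kit was TruSeq RNA v2 per the labels' protocols, which keeps no strand.

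Values were rounded to whole numbers and scaled by TMM (edgeR 4.0.16, R 4.3.3), with factors of 0.996 to 1.006. Log2 folds used a prior count of 2, and a gene entered a comparison with at least 1 CPM in 1 of its 2 libraries. Ratios carry exact conditional binomial 95% intervals, and differences of log2 folds carry delta-method intervals. With 1 library per group no p-value was computed, and whether RNA of several tissues was pooled into a library is not given in the sources used here. A count of 0 allows up to 3 counts, 0.189 to 0.193 CPM in these libraries. The calculation was tested on simulated data. Python 3.11.15, numpy 2.4.6, pandas 2.3.3, scipy 1.17.1, statsmodels 0.14.6 and matplotlib 3.10.9 were used.

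Transcript lengths, GC content and exon overlaps came from GENCODE 29, with lengths from the principal isoform of each gene, and gene positions from RefSeq (GRCh38.p14). The length correction subtracts a lowess trend of the log2 fold on transcript length over all genes that have a length. Genes without a length kept their uncorrected folds and stayed in the shares and medians of all genes.

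Members are named if their log2 fold ranks in the top 5 or bottom 5 of a comparison, counting members that reach 10 CPM in the higher library. Also named are the 5 highest and 5 lowest levels per length, the MRPS18 genes and the genes with a known extra function. For other lists, the 2 highest and 2 lowest of each coculture comparison are named. The gene set, the lists and these rules were chosen with earlier results of these data known, and the length correction from GENCODE was added after seeing the data, as were sums without MRPS6 and MRPS16. Alternatives covered scaling, filters, prior count, rounding, length and GC content. Protein sequences, and start-site windows of 9 members, were not used here. The result of 1 gene that these rules name is not reported here.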

Additional observations from a re-analysis of the deposited data

Results flagged for a closer look

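For 2 of the 78 genes the coculture values lay on opposite sides of equality in the 2 lines, with a counting interval below 1 in PC-3 and above 1 in LNCaP, as for 4.44% of all genes. MRPL30, a large-subunit protein with a bacterial counterpart, had 1275 and 1118 counts in PC-3 without and with fibroblasts (ratio 0.893, 0.824 to 0.969) and 1665 and 1755 in LNCaP (1.07, 1.003 to 1.15). The difference of its log2 folds, LNCaP minus PC-3, was 0.264. MRPS35, a mitochondria-specific small-subunit protein, had 1319 and 1172 counts in PC-3 (0.905, 0.836 to 0.980) and 1354 and 1574 in LNCaP (1.18, 1.10 to 1.27), and the difference was 0.386. These intervals cover counting error only, and with 1 library per group the difference between the lines was not tested.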

How the results depend on the processing

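Of 150 alternative values for results of comparisons, 123 stayed within the main value's counting interval, or within 1.5 times for counts of genes. A turn of direction could be scored only for the summed ratios of the comparisons, and 0 of these turned. Counts of genes could not turn, nor could the difference of summed log2 folds, whose interval includes 0. Correction for length, alone or with GC content, lowered the number of members at least 20% lower in coculture most. Length alone gave 3 in PC-3 (summed ratio 0.955) and 9 in LNCaP (0.968), with 1 and 4 at least 25% higher. With GC content corrected too, 1 gene was lower in PC-3 (0.962) and 11 in LNCaP (0.974), again with 1 and 4 higher. For LNCaP over PC-3, length correction gave summed ratios of 1.03 in monoculture and 1.05 in coculture, with 21 genes lower in coculture. Length and GC content together gave 1.02 and 1.02, with 20 genes lower in monoculture and 23 in coculture. DESeq2 size factors gave a summed ratio of 0.905 for LNCaP coculture, 1.08 and 1.12 for the lines, a difference of summed log2 folds of 0.053 and 7 genes towards higher in LNCaP. Upper quartile factors gave 1.16 and 1.17 for the lines, and total counts without ribosomal RNA genes and the 20 most abundant genes gave 1.16 in coculture. For 32 named members, 496 of 550 values kept within their limits, and the 54 that moved all did so under the 2 length settings. Without MRPS6 and MRPS16, the monoculture sums of LNCaP over PC-3 turned from below to above 1, at 1.24 for small-subunit genes and 1.14 for genes with a bacterial counterpart. Why the length settings moved these values was not tested.

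The planned correction on RefSeq transcript length was not run, since the reference table gives gene spans, and GENCODE lengths took its place. No paired analysis was possible because each group had 1 library and the groups share 1 replicate number. A fit with the lines as replicates of coculture was not run, since the comparisons are within a line. For the same reason there was no replicate to leave out, so these alternatives do not measure spread between tissues. Depth limits single genes of few counts: MRPL1, with 120 and 91 counts in PC-3, is the weakest.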

Other observations

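Rows whose symbols contain a member's name but fall outside the rule were kept apart. MRPL20-AS1, an antisense RNA, had 549, 471, 355 and 316 counts in library order, and without strand its reads cannot be told apart from those of MRPL20 where their exons overlap. MRPL23-AS1 had 3, 5, 48 and 13 counts. The pseudogenes MRPL45P2 and MRPS31P5 had 54, 42, 25 and 21 counts and 76, 45, 104 and 90 counts. The readthrough row URGCP-MRPS24 had 9, 3, 0 and 0 counts.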
